A study of Mus musculus with 6 samples.

Results

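The TGF-beta and BMP pathway genes examined here are 44 genes, chosen by symbol from a list of ligands, receptors, SMAD proteins, secreted antagonists, latent binding proteins and Id genes. All 44 were among the 55471 genes of the authors' deposited table, and 43 of them were among its 18603 genes with an adjusted p. Gdf15, with a mean normalized count of 3.73, had a p but no adjusted p. RNA was taken from the hippocampus of wild-type mice 24 hours after cerebral ischemia and reperfusion, a stroke model of stopped and resumed cerebral blood flow. There were 3 samples from mice given Visudyne and 3 from mice given saline. Visudyne, a formulation of the light-activated drug verteporfin, serves in the series to ablate meningeal lymphatic vessels, the vessels that drain the coverings of the brain. Strain, age and sex were not in the labels. Nothing in the labels ties samples to separate animals, so p-values reflect the spread among 3 samples per group, part or all of which may be technical.

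The table gives each gene a fold change between the treatments without stating which treatment is its numerator. Values are therefore given for the numerator side and the denominator side of that fold change, and no direction relative to Visudyne can be read from them. Normalized counts are reads divided by the library's size factor, the measure of sequencing depth used by the authors. Size factors of the 6 libraries lay between 0.5842 and 1.517. The digits of the deposited means, with the deposited p-values and errors, gave the whole reads of each library for 22 of the 44 genes. The means of these genes lay between 3.73 and 431. For part of them many candidates fitted the digits of the mean, such as 46 for Bmp7 and 879 for Id1. For members with higher means, these 2 among them, only candidates near the fold change estimated from the deposited values were searched. Candidates outside that range were not counted. The libraries are numbered within each side by falling size factor and cannot be tied to named samples. Size factors were 1.197, 1.055 and 0.5842 for numerator libraries 1, 2 and 3. They were 1.517, 1.223 and 0.7539 for denominator libraries 1, 2 and 3, so library 3 was the shallowest of each side. Folds below are unshrunken log2 fold changes, numerator over denominator, with standard errors. They come from recovered reads where these exist and otherwise from a back-calculation that undoes the authors' shrinkage toward 0. Markers of the dissected tissue were present, with mean normalized counts of 2333 for Prox1 and 2317 for C1ql2 (dentate granule neurons) and 5804 for Neurod6 and 3648 for Wfs1 (neurons of Ammon's horn).

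TGF-beta family ligands are secreted dimers that bring together type I and type II serine/threonine kinase receptors. The activated type I receptor phosphorylates a receptor SMAD, which enters the nucleus with Smad4. TGF-beta and activin ligands act mainly through Smad2 and Smad3, and BMP ligands through Smad1, Smad5 and Smad9. Smad6 and Smad7 inhibit the cascade, secreted proteins such as noggin and chordin bind BMPs outside the cell, and latent TGF-beta binding proteins hold TGF-beta in the matrix. The Id genes encode inhibitors of basic helix-loop-helix transcription factors and are classical BMP targets. In the adult dentate gyrus, BMP signalling holds neural stem cells in quiescence and noggin opposes it.

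Promoter sequence was matched from RefSeq (build GRCm38.p6) for 33 of the 44 genes. Those without an entry were Bmp2, Bmp3, Bmp7, Tgfb3, Tgfbr3, Smad2, Smad4, Smad7, Nog, Fst and Id1. The 250 bases before the annotated start are shown, 5′ to 3′ along the gene's strand, for Id2 and Id3, which had the smallest and the largest p of the Id genes. Those of Bmp5 are shown as well, as the BMP ligand with a promoter entry whose libraries did not overlap between the sides; it was chosen after its values were seen. Capitals mark a pair of motifs. CAGAC is the core of the SMAD-binding element, which reads as GTCTG where it lies on the other strand. GGCGCC is a GC-rich element bound by SMADs of the BMP branch. The Id2 sequence lies at chr12:25096093-25096342 on the minus strand, the Id3 sequence at chr4:136143572-136143821 on the plus strand and the Bmp5 sequence at chr9:75775115-75775364 on the plus strand.
Id2: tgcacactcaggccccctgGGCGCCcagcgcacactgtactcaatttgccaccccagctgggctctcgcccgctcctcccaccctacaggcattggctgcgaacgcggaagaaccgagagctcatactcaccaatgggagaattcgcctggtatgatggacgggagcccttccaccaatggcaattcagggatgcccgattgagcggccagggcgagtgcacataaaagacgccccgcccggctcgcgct
Id3: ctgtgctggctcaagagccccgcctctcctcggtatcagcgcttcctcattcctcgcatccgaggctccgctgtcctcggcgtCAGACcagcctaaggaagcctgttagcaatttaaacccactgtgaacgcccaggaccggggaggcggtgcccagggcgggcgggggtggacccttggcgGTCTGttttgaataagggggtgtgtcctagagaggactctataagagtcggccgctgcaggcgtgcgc
Bmp5: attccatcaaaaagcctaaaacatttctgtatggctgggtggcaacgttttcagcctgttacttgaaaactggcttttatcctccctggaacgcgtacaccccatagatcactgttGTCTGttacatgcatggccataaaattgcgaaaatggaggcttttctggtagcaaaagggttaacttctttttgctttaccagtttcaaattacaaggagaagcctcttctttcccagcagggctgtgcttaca
Id2 had 1 GGCGCC, whose first base lies 231 bases before the start, and no CAGAC on either strand. Id3 had no GGCGCC and 2 CAGAC motifs, beginning 167 and 68 bases before the start. Bmp5 had 1 CAGAC, on the other strand, and no GGCGCC, and the motifs shared no bases in these 3 sequences. G and C made up 62.8% of the bases in Id2, 62.8% in Id3 and 42.8% in Bmp5. Of 32851 annotated promoters, 42.2% held CAGAC on either strand and 9.59% held GGCGCC within these 250 bases. The 33 matched pathway genes had 43 promoters, of which 19 held CAGAC and 10 held GGCGCC. A match describes these letters only.

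Of the 44 members, Bmp3 was the gene that differed between the treatments in the authors' test. Its log2 fold change was 1.79 ± 0.37 (SE, n = 3 libraries per side), so it was higher on the numerator side. All 6 BMP ligands had a positive fold change, and 4 of the other 5 lay between 0.67 and 0.89 without passing the test. By the authors' adjusted p under 0.05 (DESeq2 is named in the submitters' processing notes), 1 of 43 members was called, against 0.328% of the 18603 tested genes. In the positive direction 0.183% of the tested genes were called, and in the negative direction, where no member was called, 0.145%. By an unadjusted p under 0.05, 6 of 43 members passed, against 6.81% of all tested genes. Of these, 5 were positive (Bmp3, Id2, Bmp4, Bmp7 and Acvr1b), against a background of 3.92%, and Tgfb2 alone was negative, against 2.89%. Over the 40 tested members with an unshrunken value the median log2 fold change was 0.10, and over 16949 tested genes it was 0.00. A positive sign was found in 23 of 43 members (53.5%) and in 50.5% of all tested genes.

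**Figure D1:**
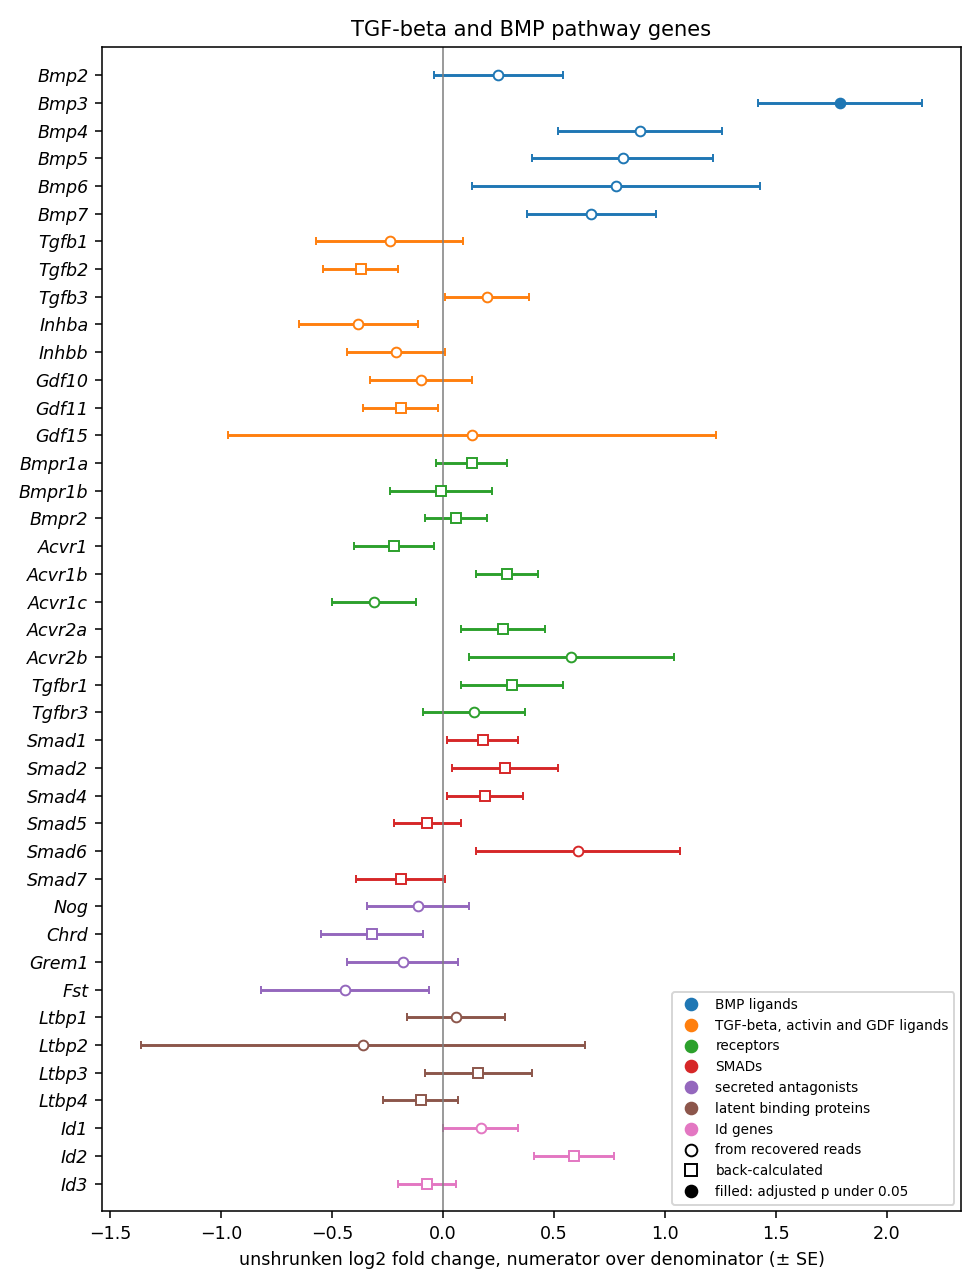
Unshrunken log2 fold change (numerator over denominator, x axis) of 41 pathway genes, with bars of ± 1 SE, ordered and coloured by role. Circles come from recovered reads and squares from the back-calculation. Bmp3, at 1.79, is the filled point, the others being unfilled because their adjusted p was 0.05 or more or missing, and the 6 BMP ligands at the top all lie to the right of 0.

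Bmp3 encodes an atypical BMP that binds activin type II receptors and opposes the signalling of other BMPs. Its normalized counts were 298, 219 and 111 in numerator libraries 1, 2 and 3 and 53.4, 85.0 and 43.8 in denominator libraries 1, 2 and 3. Every numerator library lay above every denominator library, and numerator library 1 was the highest. The side means were 209 ± 93.9 on the numerator side and 60.7 ± 21.6 on the denominator side (SD, n = 3 each). The authors' adjusted p was 0.00244 from a fit across all genes, and the authors' deposited, shrunken log2 fold change was 1.62 ± 0.39 (deposited error). The log2 ratio of side means stayed between 1.44 (without numerator library 1) and 2.11 (without denominator library 2) when each library was left out in turn. An exact two-sided permutation test of 3 libraries against 3 gave p = 0.1 for Bmp3, the smallest value that this design allows.

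Bmp4 is a canonical ligand of the BMP type I receptors. It had 90.2, 154 and 61.6 normalized counts in the numerator libraries and 46.1, 71.1 and 49.1 in the denominator libraries. The sides overlapped, because numerator library 3 lay below denominator library 2. Its log2 fold change was 0.89 ± 0.37 with an unadjusted p of 0.0165 and an authors' adjusted p of 0.509. Without numerator library 2 the log2 ratio of side means was 0.45, against 0.88 with all libraries.

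Bmp7, a ligand that signals through Acvr1 and the activin and BMP type II receptors, had 252, 389 and 171 normalized counts in the numerator libraries. In the denominator libraries it had 140, 199 and 176. Numerator libraries 1 and 2 lay above every denominator library and numerator library 3 did not. The log2 fold change was 0.67 ± 0.29, with an unadjusted p of 0.0224 and an authors' adjusted p of 0.564. The log2 ratio of side means was 0.30 without numerator library 2, against 0.66 with all libraries.

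Bmp5 and Bmp6 belong with Bmp7 to a subgroup of closely related BMPs. Bmp5 had 33.4, 52.1 and 34.2 normalized counts in the numerator libraries and 21.8, 21.3 and 26.5 in the denominator libraries. The sides did not overlap, and the log2 fold change was 0.81 ± 0.41 (unadjusted p = 0.0523, authors' adjusted p = 0.741). Its exact permutation p was also 0.1. Bmp6 had 205, 455 and 103 normalized counts in the numerator libraries and 120, 203 and 123 in the denominator libraries. Its sides overlapped, with the highest and the lowest value both on the numerator side. The log2 fold change of Bmp6 was 0.78 ± 0.65 (authors' adjusted p = 0.927), and the log2 ratio of side means was 0.05 without numerator library 2, against 0.77 with all libraries.

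Bmp2, a canonical ligand closely related to Bmp4, had 88.6, 110 and 151 normalized counts in the numerator libraries. It had 119, 80.9 and 88.9 in the denominator libraries. The sides overlapped, and the highest value was in numerator library 3, in contrast to Bmp4 to Bmp7, which were all highest in numerator library 2. The log2 fold change of Bmp2 was 0.25 ± 0.29 (authors' adjusted p = 0.963).

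**Figure D2:**
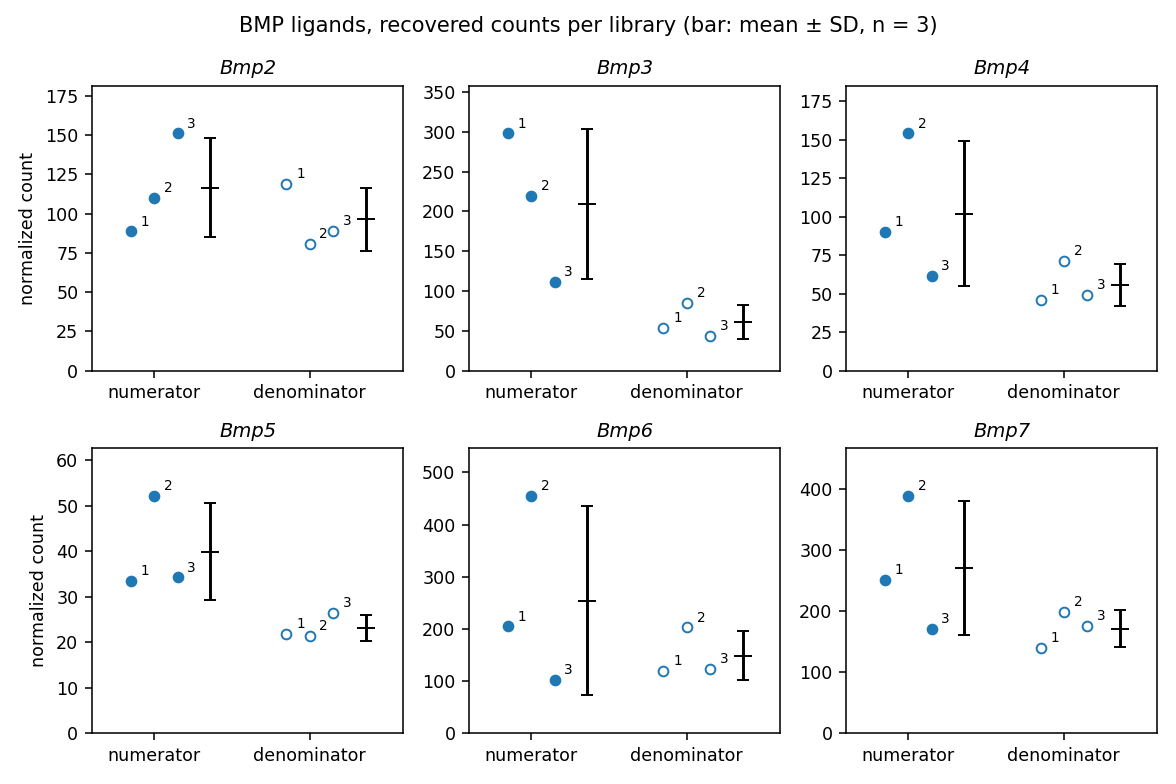
Normalized count per library (y axis, from 0) of the 6 BMP ligands, numerator libraries as filled points at the left of each panel and denominator libraries as open points at the right. Numbers name the library, and the bar gives the mean ± SD of 3 libraries. The sides are apart for Bmp3 and Bmp5, while numerator library 2 is the highest for Bmp4, Bmp5, Bmp6 and Bmp7.

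Among the 22 members with recovered reads, 2 had sides that did not overlap, Bmp3 and Bmp5, and in both the numerator side was higher. This is 9.09% of the 22. Of 3646 tested genes with a mean under 30 and recovered reads, 12.7% did not overlap, 7.32% with the numerator side higher and 5.35% with it lower. That background has lower counts than most of the members.

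Markers of other cell types also differed in level between these libraries. In whole tissue, fewer cells of a type and less RNA per cell cannot be told apart. All 11 meningeal fibroblast markers were positive and 4 were called by the authors' adjusted p, against 0.183% of all tested genes. The summed normalized count of the 9 with recovered reads was 1212, 2395 and 864 in numerator libraries 1, 2 and 3, and 560, 806 and 796 in denominator libraries 1, 2 and 3. The small matrix proteoglycan gene Fmod, with the smallest p of the list, had 242, 655 and 212 normalized counts in the numerator libraries and 65.3, 89.9 and 115 in the denominator libraries (log2 fold change 2.05 ± 0.39, authors' adjusted p = 0.000579). Numerator library 2, in which Bmp4, Bmp5, Bmp6 and Bmp7 were highest, was also the highest in this list. It was the highest library for 9 of the 22 members with recovered reads. The sum of pericyte and smooth muscle markers peaked there too (322). The sums of endothelium, layer 6b and cortical neurons peaked in numerator library 1, and that of microglia in denominator library 3.

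All 8 choroid plexus markers were positive, and none was called. The sum over the 5 with recovered reads was 1035, 2899 and 394 in the numerator libraries and 343, 1169 and 191 in the denominator libraries. The sides overlapped, and numerator library 2 was again the highest. These 5 held 2.81% of the list's mean count, and Ttr, with a mean of 33085, was not among them. The water channel gene Aqp1 had 135, 689 and 27.4 normalized counts in the numerator libraries and 67.9, 89.9 and 31.8 in the denominator libraries. Bmp4, Bmp6 and Bmp7 shared with this list a highest value in numerator library 2 and a highest denominator value in denominator library 2. Numerator library 3 lay below the mean of the denominator side in this list and in Bmp6. In Bmp7 it did so narrowly (171 against 172), and in Bmp4 it did not (61.6 against 55.5).

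All 4 markers of cortical layer 6b were positive, and 3 were called, against 0.183% of all tested genes in that direction. The sum of Cplx3 and Nxph4 was 743, 567 and 472 in the numerator libraries and 190, 311 and 183 in the denominator libraries. Cplx3, a complexin of the synaptic vesicle machinery, had 638, 517 and 390 normalized counts in the numerator libraries and 162, 260 and 153 in the denominator libraries. The list held the neurexophilin genes Nxph3 and Nxph4. Nxph3 was called (log2 fold change 1.36 ± 0.28, authors' adjusted p = 0.00244), but its reads were not recovered. Nxph4 was not called (authors' adjusted p = 0.303). It had 104, 50.2 and 82.2 in the numerator libraries and 28.3, 51.5 and 30.5 in the denominator libraries, so its sides overlapped. Bmp3 ranked the libraries within each side in the same order as Cplx3, and not in that of Nxph4. That order was not particular to these genes. Sostdc1, an antagonist gene outside the list, had it too, with a log2 fold change of -0.02 ± 0.45. The share of all genes with this order was not counted.

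Microglial markers were negative in 8 of 8 (1 called) and markers of myelinating oligodendrocytes in 8 of 8 (1 called). In the negative direction 0.145% of all tested genes were called. The summed Aif1 and Siglech counts were 513, 285 and 397 in the numerator libraries and 546, 683 and 708 in the denominator libraries. Positive signs were found in 5 of 6 markers of oligodendrocyte precursors, 5 of 7 of astrocytes, 3 of 7 of endothelium, 4 of 6 of pericytes and smooth muscle and 6 of 6 of cortical neurons. They were found in 1 of 4 markers of dentate granule neurons and 2 of 6 of Ammon's horn neurons. Of these lists, only that of astrocytes held a called gene, Fgfr3 (log2 fold change 0.71 ± 0.19). The astrocyte markers with the next smallest p, Aqp4 (-0.53 ± 0.23) and Gfap (-0.48 ± 0.24), were negative and not called. The remaining astrocyte markers lay between 0.01 and 0.18. No listed marker of any of these cell types was at 0. The part of any of these cell types in the values of the BMP ligands was not tested.

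**Figure D3:**
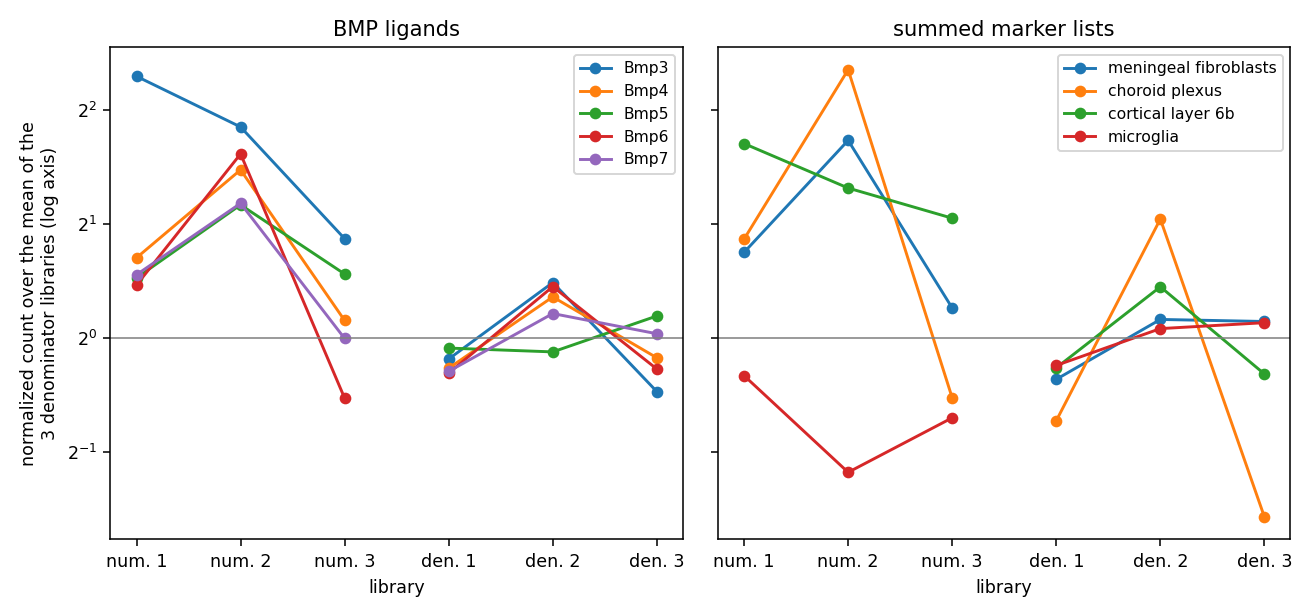
Normalized count of 5 BMP ligands (left) and summed normalized count of 4 marker lists (right) in each library, divided by the mean of the 3 denominator libraries on a log axis. Sums cover only markers with recovered reads. These held 57.4% of the list's mean count for meningeal fibroblasts, 2.81% for choroid plexus, 32.1% for layer 6b and 7.36% for microglia. Lines join the values of 1 gene or list within a side. Numerator library 2 is the peak of Bmp4 to Bmp7 and of the meningeal and choroid plexus lists, while Bmp3 and the layer 6b list are highest in numerator library 1.

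Among the TGF-beta, activin and GDF ligands, 6 of the 7 tested were negative and none was called. Tgfb2, a TGF-beta isoform made in the brain by neurons and glia, had the smallest p, with a log2 fold change of -0.37 ± 0.17 (unadjusted p = 0.0303, authors' adjusted p = 0.628). Its mean normalized count of 1013 with that fold change gives side means of 884 on the numerator side and 1143 on the denominator side. Tgfb1, the isoform that microglia make and depend on, had 51.0, 63.5 and 71.9 normalized counts in the numerator libraries and 68.6, 53.1 and 99.5 in the denominator libraries. The sides overlapped (log2 fold change -0.24 ± 0.33), and without denominator library 3 the log2 ratio of side means was 0.03. Tgfb3 had 252, 301 and 322 normalized counts in the numerator libraries and 237, 272 and 249 in the denominator libraries (0.20 ± 0.19), again with overlap.

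Inhba, the activin A subunit gene, had 117, 93.8 and 110 normalized counts in the numerator libraries and 98.9, 153 and 168 in the denominator libraries (log2 fold change -0.38 ± 0.27). Inhbb, the activin B subunit gene, had 157, 221 and 192 in the numerator libraries and 217, 192 and 253 in the denominator libraries (-0.21 ± 0.22). Both overlapped, and both had their highest value in denominator library 3. Gdf10, a ligand related to Bmp3, had a log2 fold change of -0.10 ± 0.23, with 206, 329 and 245 normalized counts in the numerator libraries and 307, 231 and 297 in the denominator libraries. The difference between the genes was not tested. Gdf11 had a log2 fold change of -0.19 ± 0.17, and Gdf15, a stress-induced ligand, had between 1 and 7 reads in each library.

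**Figure D4:**
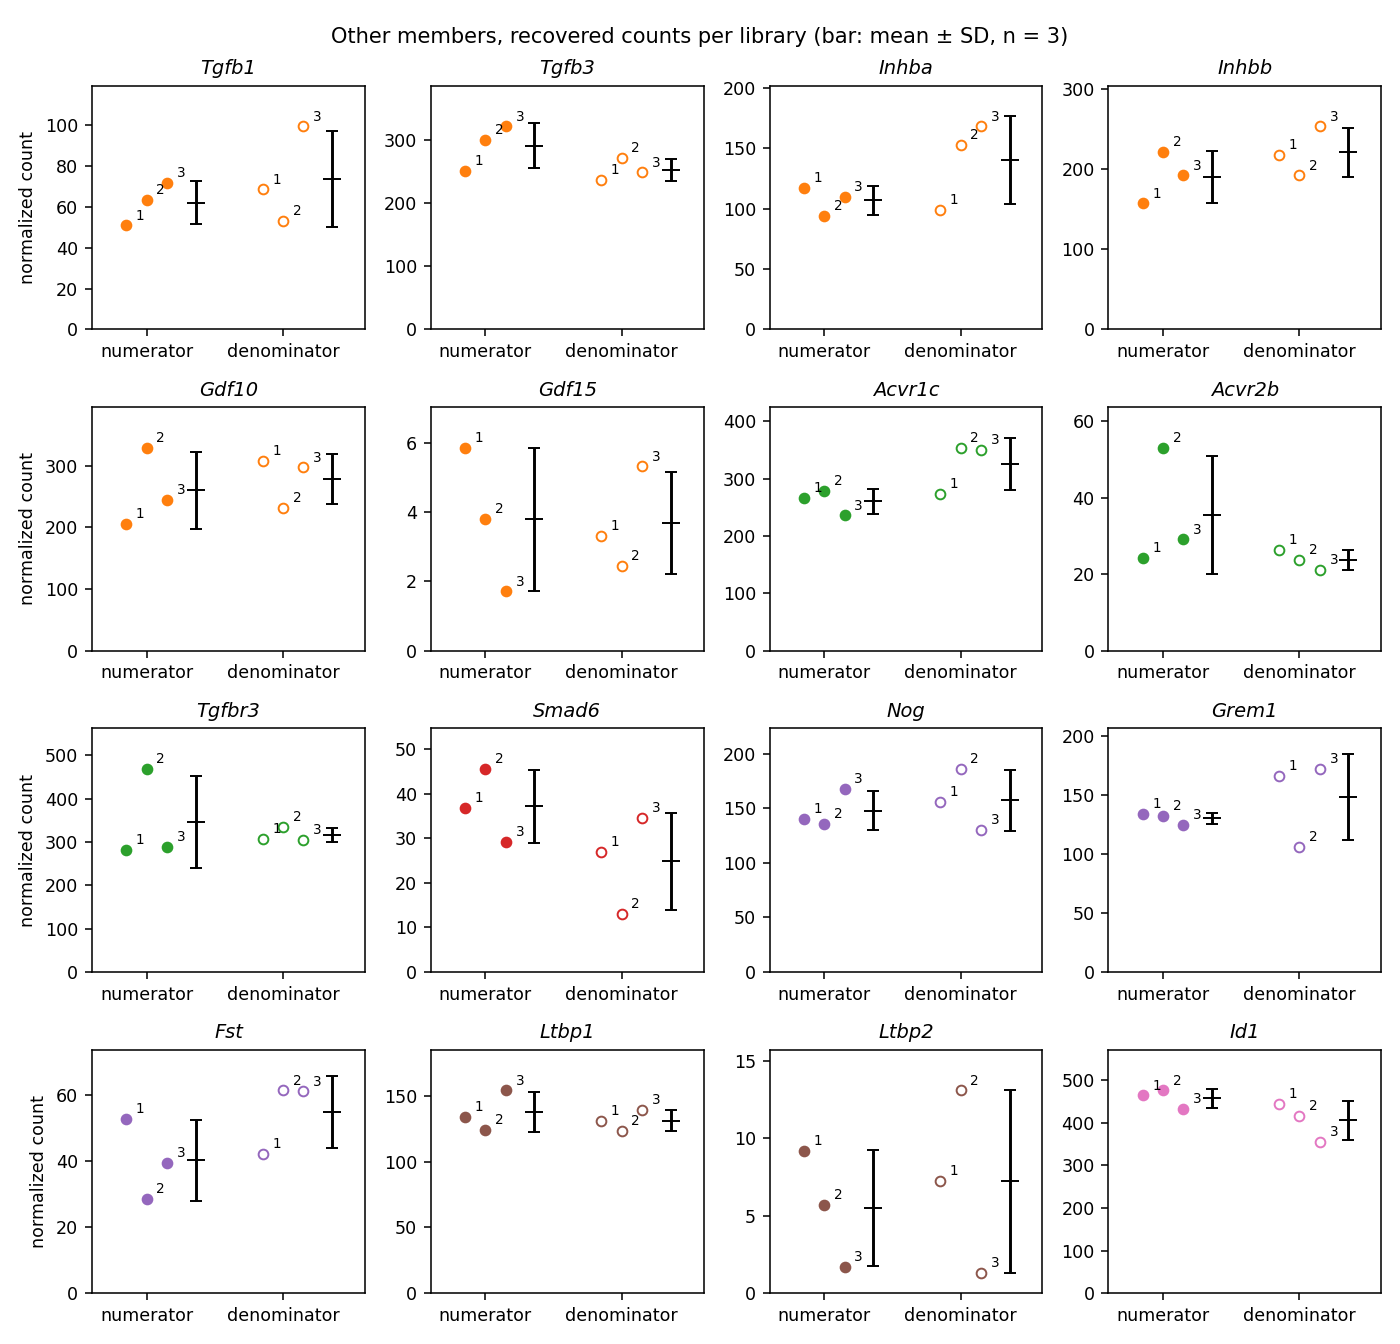
Normalized count per library (y axis, from 0) of the 16 recovered members that are not BMP ligands, numerator libraries filled at the left and denominator libraries open at the right, with the mean ± SD of 3 libraries. The points of the sides overlap in all 16 panels. Numerator library 2 stands highest for Acvr2b and Tgfbr3, among others.

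None of the 11 receptors was called, and 8 had a positive sign. Acvr1b, a type I receptor for activins and related ligands, had the smallest p, with a log2 fold change of 0.29 ± 0.14 and an authors' adjusted p of 0.662 (unadjusted p = 0.0370). Its mean normalized count was 2814, with side means from the fold change of 3095 on the numerator side and 2532 on the denominator side. Acvr2a, a type II receptor, had 0.27 ± 0.19, and Tgfbr1, the type I receptor of TGF-beta, 0.31 ± 0.23. Acvr2b, a type II receptor bound by Bmp3, had 24.2, 53.1 and 29.1 normalized counts in the numerator libraries and 26.4, 23.7 and 21.2 in the denominator libraries. Its log2 fold change was 0.58 ± 0.46, and its log2 ratio of side means was 0.17 without numerator library 2, against 0.58 with all libraries.

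Acvr1c, the type I receptor also called ALK7, had 267, 279 and 236 normalized counts in the numerator libraries and 273, 354 and 350 in the denominator libraries (log2 fold change -0.31 ± 0.19). The sides overlapped by the first denominator library alone. The co-receptor gene Tgfbr3 had 282, 468 and 288 in the numerator libraries and 307, 334 and 305 in the denominator libraries, and its log2 ratio of side means changed sign, to -0.15, without numerator library 2. The BMP type I and type II receptors lay close to 0, with log2 fold changes of 0.13 ± 0.16 for Bmpr1a, -0.01 ± 0.23 for Bmpr1b and 0.06 ± 0.14 for Bmpr2. Acvr1 had -0.22 ± 0.18. Tgfbr2, for which no unshrunken value could be obtained, had an unadjusted p of 0.998.

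The SMAD genes were evenly split, 4 of 8 with a positive sign, and none had an unadjusted p under 0.05. The smallest p belonged to Smad6, the inhibitory SMAD that acts mainly on BMP signalling and is itself a BMP target. It had 36.8, 45.5 and 29.1 normalized counts in the numerator libraries and 27.0, 13.1 and 34.5 in the denominator libraries. The sides overlapped, and the log2 fold change was 0.61 ± 0.46 (unadjusted p = 0.188, authors' adjusted p = 0.917). Smad1, a BMP receptor SMAD, had a log2 fold change of 0.18 ± 0.16 and Smad5, another, -0.07 ± 0.15. Smad2 had 0.28 ± 0.24, the common partner Smad4 0.19 ± 0.17 and the inhibitory Smad7 -0.19 ± 0.20. For Smad3 and Smad9 no unshrunken value could be obtained; their unadjusted p-values were 0.861 and 0.240.

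All 4 secreted antagonists had negative fold changes, and none reached an unadjusted p of 0.05. Chrd, which encodes the BMP-binding protein chordin, had the smallest p and a log2 fold change of -0.32 ± 0.23 (unadjusted p = 0.160, authors' adjusted p = 0.886). Noggin (Nog) had 140, 136 and 168 normalized counts in the numerator libraries and 156, 186 and 130 in the denominator libraries (-0.11 ± 0.23). Gremlin 1 (Grem1) had 134, 132 and 125 in the numerator libraries and 166, 106 and 172 in the denominator libraries (-0.18 ± 0.25). Follistatin (Fst), which binds activins, had 52.6, 28.4 and 39.4 in the numerator libraries and 42.2, 61.3 and 61.0 in the denominator libraries (-0.44 ± 0.38). The sides overlapped in Nog, Grem1 and Fst, and Nog had its highest value on the denominator side and its lowest there too.

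The 4 latent TGF-beta binding protein genes lay between -0.36 and 0.16. Ltbp3 had the smallest p of them (0.16 ± 0.24, unadjusted p = 0.512, authors' adjusted p = 0.975). Ltbp1 had 134, 124 and 154 normalized counts in the numerator libraries and 131, 123 and 139 in the denominator libraries, a log2 fold change of 0.06 ± 0.22. Ltbp4 had -0.10 ± 0.17, and Ltbp2 was near the detection limit with between 1 and 16 reads per library.

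The Id genes, the classical BMP targets, had log2 fold changes between -0.07 and 0.59. Id2 had the second smallest p of the members after Bmp3, with a log2 fold change of 0.59 ± 0.18 and an unadjusted p of 0.00108, but did not pass the authors' adjustment (adjusted p = 0.138). Its side means from the fold change were 2448 normalized counts on the numerator side and 1631 on the denominator side. Id2 and Bmp3 were also the members whose deposited fold change was not shrunken to near 0, at 0.44 for Id2, while the other 42 deposited log2 values lay between -0.00829 and 0.00992. Id1 had 464, 476 and 433 normalized counts in the numerator libraries and 444, 416 and 356 in the denominator libraries (0.17 ± 0.17, authors' adjusted p = 0.940). Numerator library 3 lay below denominator library 1, so the sides overlapped. Id3 had a log2 fold change of -0.07 ± 0.13 (authors' adjusted p = 0.977). Whether Id2 differed from Id1 or Id3 in its fold change was not tested.

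Levels were compared between genes per length, as the mean normalized count over all libraries per kilobase of merged exons (GENCODE vM21, matched for 44 of 44 genes). Id2 had 837 per kilobase, Id3 644, Acvr1b 637, Chrd 383, Id1 372 and Smad3 361. Most receptors and SMADs stood above the BMP ligands on this scale, with Bmpr1a at 174, Bmpr2 at 173, Acvr1 at 168, Smad4 at 166 and Smad5 at 98.2 per kilobase. Among BMP ligands the order was Bmp7 (55.0), Bmp6 (51.6), Bmp4 (35.0), Bmp2 (29.9), Bmp3 (18.3) and Bmp5 (7.84). The libraries of each neighbouring pair in that order overlapped, since Bmp3, for example, ranged from 5.92 to 40.3 per kilobase and Bmp5 from 5.28 to 13.0. Tgfb2, at 175 per kilobase, stood above Tgfb3 at 80.5 and Tgfb1 at 13.5. Tgfb3 ranged from 69.9 to 95.1 and Tgfb1 from 10.1 to 19.7 per kilobase, so these did not overlap. The lowest level was that of Ltbp2, at 0.779 per kilobase.

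**Figure D5:**
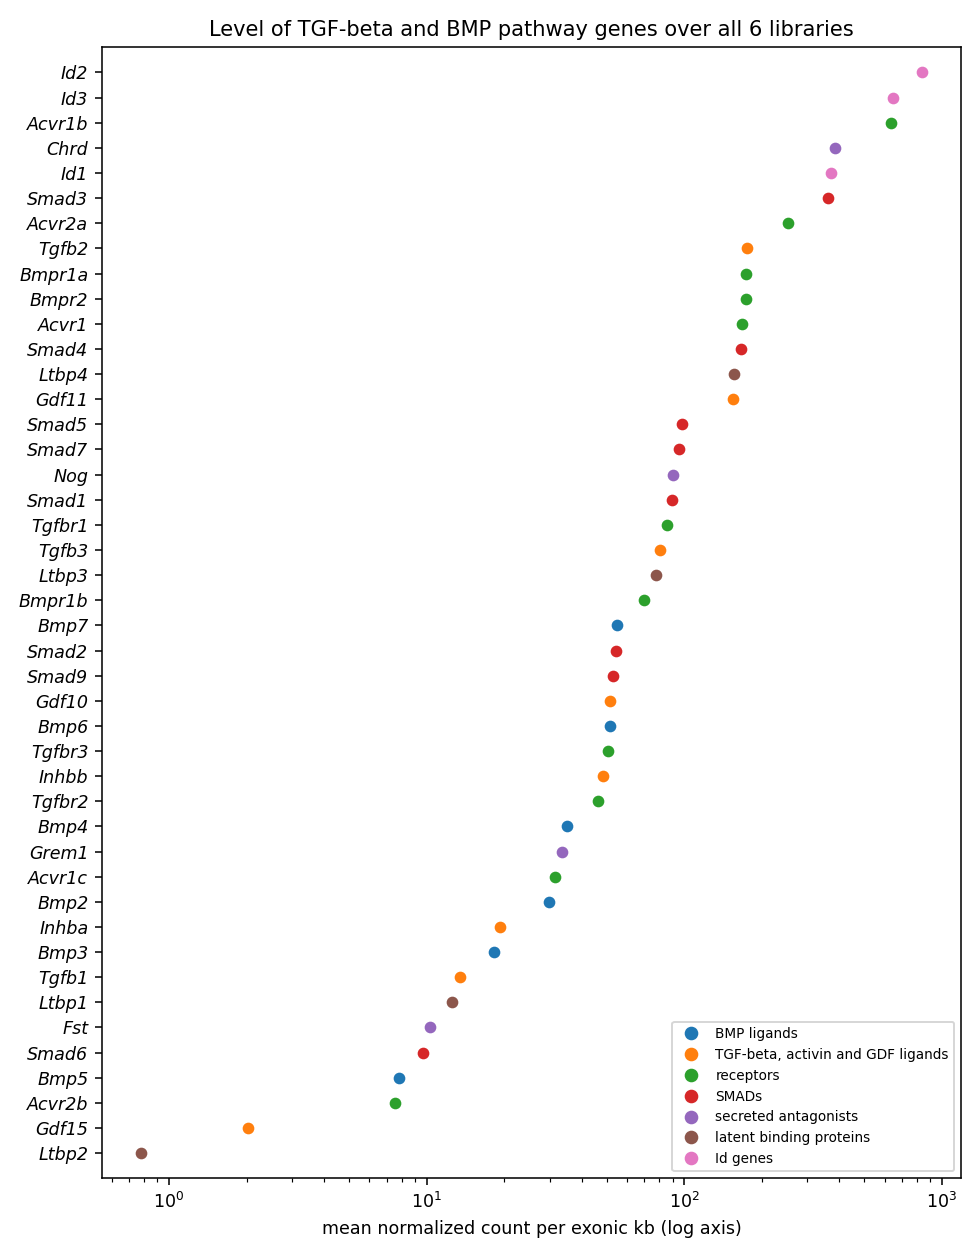
Mean normalized count per exonic kilobase over all 6 libraries (x axis, log scale) of the 44 pathway genes, ordered by level and coloured by role. Id2, Id3 and Acvr1b stand at the top and Acvr2b, Gdf15 and Ltbp2 at the bottom, with the 6 BMP ligands at or below 55.0 per kilobase.

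Other genes of the pathway were counted from a list that does not hold the members. Of its 62 tested genes, 33 were positive, 1 was called (positive, against 0.183% of all tested genes), and 8 had an unadjusted p under 0.05, 6 positive and 2 negative (12.9%, against 6.81% of all tested genes). The called gene was Ccn2, a matrix protein gene induced by TGF-beta and also counted above as a marker of layer 6b, with a log2 fold change of 1.55 ± 0.28 and an authors' adjusted p of 0.000199. Of the other target genes, Junb and Klf10 had log2 fold changes of -0.51 ± 0.26 and -0.38 ± 0.20, and neither had an unadjusted p under 0.05.

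The list of other ligands held 9 tested genes, among them Bmp1, a protease that cleaves chordin and procollagens and is no ligand despite its name. Of these 9 genes, 3 were positive and none was called. Lefty2, an inhibitor of Nodal signalling, had 119, 150 and 166 normalized counts in the numerator libraries and 104, 67.0 and 34.5 in the denominator libraries. Its sides did not overlap, and its log2 fold change was 1.05 ± 0.35 (authors' adjusted p = 0.232). The closely related Lefty1 had the opposite sign, at -0.54 ± 0.26 (authors' adjusted p = 0.681). Bmp1 had -0.58 ± 0.24 (authors' adjusted p = 0.498), and the oocyte ligand gene Gdf9 had -0.76 ± 0.43.

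Among 14 other antagonists and extracellular regulators, 8 were positive and none was called. The follistatin-like gene Fstl4 had a log2 fold change of 0.52 ± 0.27 (authors' adjusted p = 0.739), Fstl1 0.29 ± 0.16 and Bmper 0.36 ± 0.28. Of 9 genes of TGF-beta activation and matrix storage, 7 were positive, and the smallest p was that of Htra1, a secreted protease (0.45 ± 0.21, authors' adjusted p = 0.655). Thbs1, an activator of latent TGF-beta, had 40.9, 95.7 and 30.8 normalized counts in the numerator libraries and 27.0, 25.3 and 47.8 in the denominator libraries (0.78 ± 0.48). Of 11 intracellular regulators, 5 were positive, with the smallest p for Zfyve9, the SMAD anchor gene (0.31 ± 0.14, authors' adjusted p = 0.561). None of the 8 co-receptors and other receptors had an unadjusted p under 0.05; the smallest p was that of Bambi, a pseudoreceptor (-0.26 ± 0.22, authors' adjusted p = 0.926).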

How the data were processed

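RNA from 6 hippocampus samples was sequenced as 150 bp paired-end reads of stranded mRNA libraries on a NovaSeq 6000. As the labels' protocols state, fastp 0.20.0 removed adapters and low-quality bases, HISAT2 2.1.0 did the alignment and featureCounts 2.0.1 assigned reads to genes. The submitters' processing notes list DESeq2 1.28.0. Neither genome build nor annotation nor strandedness of counting is stated in these sources, so overlapping genes may share reads. The authors' deposited mean is a signal, counts divided by size factors and averaged over the libraries. Fold changes and errors were deposited by the authors on the log2 scale, after shrinkage toward 0 that the values reveal. The p-values, raw and adjusted, are those the authors deposited. A repeated sheet with identical values was not used.

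Each deposited mean is a sum of 6 whole read numbers, each times a step fixed by the library's size factor. With 15 significant digits, the read numbers were found by enumeration for genes with a mean under 480. For higher means the enumeration covered only a range around the fold change estimated from the deposited values. A solution was accepted if it gave the deposited error within 1e-05 (relative) under a negative binomial fit with a Cauchy prior of scale 0.03563 (log2). Every other solution in the range searched had to be at least 30 times farther off. Reads were recovered for 22 of 27 members tried and for 3646 of 3769 tested genes with a mean under 30. Means over all libraries, the raw and adjusted p-values and the calls made from them remain the authors' own. Side means and exact permutation p-values were computed here, the side means from recovered reads or from the unshrunken fold changes. The count test planned for files with counts per library could not be run, since reads were recovered for part of the genes only. For other genes the unshrunken fold change was back-calculated from the deposited value, its error and p, and kept where the errors agreed within 0.5% and the resulting error was at most 1. On 45 genes with an error up to 0.4 and recovered reads it differed by at most 0.05. Both routes use the deposited p and error, so this agreement is not an independent check. The back-calculation gave no value for Smad3, Smad9 and Tgfbr2.

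Intervals on single counts are not given; counting error is part of the spread between libraries. Depth per library is known as size factors, and total counts per library were not analysed here. Exact permutation tests used log2(normalized count + 0.5). Python 3.11.15 with numpy, scipy, pandas and numba was used. Every member is accounted for, and full values are given for those with an unadjusted or adjusted p under 0.05, for the member with the smallest p of each role, and for up to 4 other pathway genes per group. Some genes that this rule selects are counted but not reported here. Bmp5, Bmp6 and further members are described beyond that rule because their reads were recovered. The members, lists and tests were chosen with earlier results of these data known.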

Additional observations from a re-analysis of the deposited data

How the results depend on the processing

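The count of 1 called member held under an adjusted p of 0.1, a minimum deposited log2 fold change of 1, adjustment over all genes with a p, adjustment over genes with at least 1 CPM, and z divided by its SD over all tested genes (1.088). The count of members with an unadjusted p under 0.05 was 5 with z divided by its SD, in place of 6, and 2 at an unadjusted p under 0.01. The median log2 fold change of the members, 0.10, lay between 0.03 and 0.14 under the other filters and prior scales, and was 0.0009 on the deposited, shrunken scale. The 0.2% limit on the agreement of errors, chosen after seeing the data, gave 0.14. A prior 1.5 times wider or narrower moved back-calculated values of members near 0 on the deposited scale, to 0.64 (wider) and 0.13 (narrower) for Acvr1b and to -0.82 (wider) and -0.17 (narrower) for Tgfb2, but not that of Bmp3 (1.79). A tolerance 10 times wider recovered reads for 19 of the 22 members, and the reads were identical in all 19. Of the 132 ratios of side means with 1 library left out, none moved by more than the SD between libraries. Leaving out 1 of 3 libraries can hardly shift a side's mean that far, so this is no sign of stability. In at least 1 of these ratios, 7 of 22 members changed sign. The ratio of Bmp6 was 0.05 without numerator library 2, against 0.77 with all libraries, and Bmp3 kept values from 1.44 to 2.11. Leaving out libraries in the authors' test, TMM normalization, edgeR and a new DESeq2 fit were not run, since they need reads of every gene. No paired analysis was possible because the libraries cannot be tied to sample names or replicate numbers. Gdf15, with the fewest reads, had a standard error of 1.10 on the log2 scale. Even a difference as large as that error could not be told from 0 in it at this depth.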
